A study of Mus musculus with 4 samples.

Results

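The cyclin-dependent kinase inhibitors of the mouse were followed across the cell classes of the aged kidney. All 7 genes of the Cdkn1 and Cdkn2 families were taken by symbol from the 31054 features counted: Cdkn1a, Cdkn1b, Cdkn1c, Cdkn2a, Cdkn2b, Cdkn2c and Cdkn2d. Kidneys came from male C57BL/6 mice aged 19 months that received BPTES, an inhibitor of the glutaminase GLS1, or its vehicle DMSO for 1 month, with 2 single-cell libraries in each group. Each library mixed 20000 CD45- and 9000 CD45+ sorted cells of the same tissue, so leukocytes were set to a fixed share of the input and the sort, not the tissue, fixes the ratio of leukocytes to other cells. The labels do not say that the libraries of a group came from separate animals, so every p-value measures the spread between these libraries, which may be technical.

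Cyclin-dependent kinases drive the cell cycle by phosphorylating the retinoblastoma proteins, which then release E2F factors. The inhibitors hold the kinases back in 2 ways: the Cip/Kip proteins encoded by Cdkn1a (p21), Cdkn1b (p27) and Cdkn1c (p57) bind cyclin-kinase complexes, and the INK4 proteins encoded by Cdkn2a, Cdkn2b, Cdkn2c and Cdkn2d bind Cdk4 and Cdk6 themselves. In the kidney, Cdkn1a and Cdkn2a are widely used as markers of injured or senescent cells, and Cdkn1c marks podocytes.

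The genes lie on 5 chromosomes of the mouse build GRCm38 (mm10) in the GENCODE annotation. Cdkn1a spans chr17:29090976-29100727 on the plus strand, Cdkn1b chr6:134920401-134925513 on the plus strand and Cdkn1c chr7:143458339-143461050 on the minus strand. On chromosome 4, Cdkn2a (chr4:89274471-89294653), Cdkn2b (chr4:89306299-89311039) and Cdkn2c (chr4:109660876-109667189) are all on the minus strand, and Cdkn2d is at chr9:21288410-21291407, also on the minus strand. Cdkn1a overlaps AC167363.2 and Cdkn1c overlaps Gm44732 on the opposite strand, and since strand use in counting is not given in the sources used here, reads of these pairs might not be told apart.

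2 of the loci have start sites that matter for what a count means, and bases before RefSeq starts are shown from the RefSeq promoter windows (GRCm38.p6), 5′ to 3′ on the gene's strand. RefSeq starts can differ from GENCODE's. Cdkn2a has alternative first exons, in chr4:89294334-89294653 (Cdkn2a-202) and chr4:89281986-89282192 (Cdkn2a-201), that join the same second exon at chr4:89276645-89276985. The RefSeq start of the upstream one, at 89294619, lies inside the GENCODE exon, so part of the stretch printed before it is exonic in GENCODE. The upstream start gives the Arf product and the downstream start gives p16Ink4a, in different reading frames. A library made from 3′ ends reads the exons they share, so Cdkn2a counts below do not separate the products. In the Cdkn1a window the capitals mark the spacing of a p53 core, CATG, any 6 bases and CATG, searched on both strands.
Cdkn1a, chr17:29090888-29090978: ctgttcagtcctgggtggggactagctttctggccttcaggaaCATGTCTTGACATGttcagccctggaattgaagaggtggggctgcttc
Cdkn1a, chr17:29093669-29093768: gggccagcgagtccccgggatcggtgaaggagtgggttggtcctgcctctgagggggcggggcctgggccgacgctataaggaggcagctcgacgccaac
Cdkn2a, chr4:89294620-89294719: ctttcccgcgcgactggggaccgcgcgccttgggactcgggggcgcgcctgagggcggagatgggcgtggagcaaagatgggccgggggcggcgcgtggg
Cdkn2a, chr4:89282193-89282292: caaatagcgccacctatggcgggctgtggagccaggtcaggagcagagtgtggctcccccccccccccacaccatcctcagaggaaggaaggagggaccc
Promoter windows from 250 bases before to 50 bases after the start were at hand for 6 of the 7 genes (9 windows). The p53 core was found in 0.712% of all 32851 mouse windows and, among those of the inhibitors, at 1 start of Cdkn1a, with its first base 48 bases before the start (position -48). The E2F letters TTTCGCGC and TTTGGCGC, present in 0.323% and 0.514% of all windows, were in none of the 9.

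The libraries held 249881074 to 297947661 unique molecular identifiers (UMIs, each marking a captured transcript) over 17907 to 20091 barcodes, of which 10849 to 12076 were kept as cells. Any pair of libraries shared 90 to 114 barcodes. Clustering without the 7 inhibitors gave 52 clusters. Those clusters were joined into classes named by their markers, so that each name means cells like that type, and 7 clusters with 3497 of the 46738 cells stayed unnamed. Levels are given for the 16 classes with at least 20 cells in every library, and BPTES was compared with DMSO in the 13 classes with at least 50. Podocyte-like cells, the kidney's classical site of Cdkn1c, were not among the 16. Proximal tubule markers summed to 26400 to 31091 CPM in that class and macrophage markers to 10682 to 15186 CPM in macrophages. Single libraries stood apart for some pairs of gene and class. Among them were DMSO replicate 1 for Cdkn2a in macrophages and DMSO replicate 2 for Cdkn1a in neutrophils, monocytes and innate lymphoid cells. Cdkn1a in thick ascending limb also varied widely between single libraries. These results are given with all libraries and with single ones left out.

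The map of levels by class shows how the inhibitors were distributed over the kidney's cells. Cdkn1a, Cdkn1b and Cdkn2d shared their highest class, and the others differed in theirs. Levels are CPM, the UMIs of a gene per 1000000 UMIs of the class in a library, as mean ± SD over the 4 libraries. Values are compared along a gene, not between genes. Because the SDs span both treatments, neighbouring classes whose libraries overlap are not separated.

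Among the Cip/Kip genes, Cdkn1a was highest in neutrophils (546 ± 300 CPM), where all 4 libraries lay above those of every other class. Monocytes (152 ± 58.6), conventional dendritic cells (151 ± 32.7) and endothelium (120 ± 10.1) formed the next, overlapping, tier, ahead of macrophages (85.9 ± 18.2). T cells were lowest at 6.95 ± 3.74 CPM, and proximal tubule stood at 15.2 ± 7.54 CPM. Cdkn1b was also highest in neutrophils (346 ± 65.4 CPM), followed by T cells (176 ± 18.0), and was lowest in proximal tubule (30.1 ± 1.75). The other leukocyte classes, plasma cells apart, had means of 93.9 to 141 CPM. Cdkn1c was an endothelial transcript among the classes, at 24.2 ± 1.30 CPM with 22.3 to 25.2 CPM in single libraries. The next class, macrophages, had 6.20 ± 0.574 CPM and did not overlap it.

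**Figure D1:**
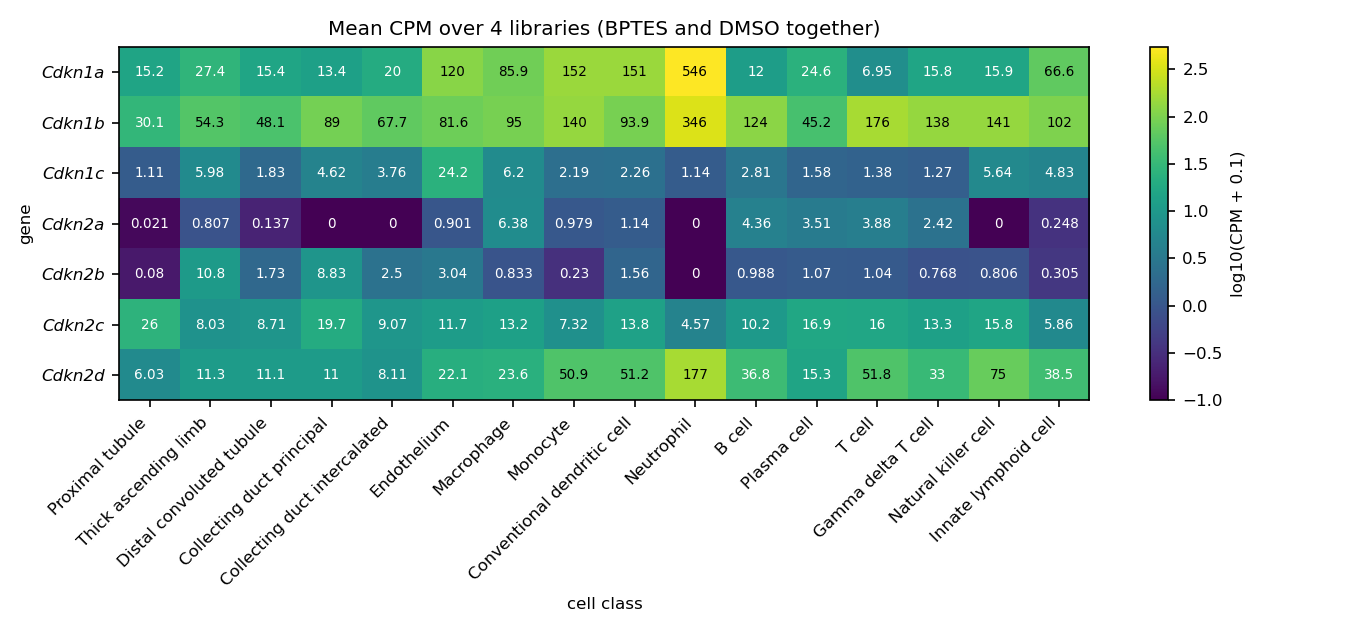
Mean CPM of the 7 inhibitors (rows) in 16 marker-defined cell classes (columns), over all 4 libraries; the colour is log10(CPM + 0.1), and rows are to be read along a gene. Neutrophils lead for Cdkn1a, Cdkn1b and Cdkn2d, endothelium for Cdkn1c, macrophages for Cdkn2a, thick ascending limb for Cdkn2b and proximal tubule for Cdkn2c. The lead of macrophages for Cdkn2a rests on DMSO replicate 1 alone.

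The INK4 genes divided differently. Cdkn2d was highest in neutrophils (177 ± 38.8 CPM) and natural killer cells (75.0 ± 14.5), and lowest in proximal tubule (6.03 ± 1.46). Cdkn2c ran the other way: proximal tubule was highest (26.0 ± 3.62 CPM) and neutrophils lowest (4.57 ± 1.38). Cdkn2b was low in the 16 classes, with thick ascending limb (10.8 ± 4.24 CPM) and collecting duct principal cells (8.83 ± 3.13) above endothelium (3.04 ± 0.331), and 0 UMIs in 1065 neutrophils. An unnamed cluster led by Cryab, Fst and Slc14a2 held more Cdkn2b than any of these classes, with 62.2 and 82.6 CPM under BPTES and 34.2 and 50.6 CPM under DMSO.

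Cdkn2a was low in most libraries and classes. Macrophages had the highest mean, 6.38 ± 7.85 CPM, and 1 library set it. B cells (4.36 ± 3.37), T cells (3.88 ± 1.16) and plasma cells (3.51 ± 2.48) overlapped them. In proximal tubule, the most numerous class, Cdkn2a had 2 and 1 UMIs in the treated libraries against 1 and 5 in the controls among 21449 cells. No UMI was seen in 1065 neutrophils, which allows a share of cells with a UMI of up to 0.282% for counting error alone. At this depth that says nothing of how many cells express the gene.

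Ranking by UMIs per cell instead of CPM moved the leading class for 3 genes, Cdkn2a and Cdkn2c to plasma cells and Cdkn2b to collecting duct principal cells. Over the 13 tested classes Cdkn1b and Cdkn2d ran most closely together (Pearson r = 0.93 of log2 CPM), while the most opposed pairs were Cdkn2c with Cdkn2d (r = -0.61) and with Cdkn1a (r = -0.58). These are descriptions over 13 classes that share libraries. By the same measure the transcripts most like Cdkn1a were Gda, Cpne2 and Kcnj2 (r = 0.93, 0.90 and 0.89) and those most like Cdkn1b were Zkscan6, Katna1 and Max (0.97, 0.95 and 0.95). For Cdkn1c they were Dusp8, Rnf215 and Efemp2 (0.91, 0.90 and 0.88), and for Cdkn2a Zfp382, Gm31597 and Hist1h4d (0.96, 0.94 and 0.92). Cdkn2b was most like Rasl11a, C230037L18Rik and Samd14 (0.92, 0.91 and 0.91), Cdkn2c like Mtor, Ap1ar and Sepsecs (0.86, 0.85 and 0.83), and Cdkn2d like Emd, Lin54 and Coq10b (0.98, 0.96 and 0.96).

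Whether BPTES moved the inhibitors was asked class by class, on UMIs summed per library and class. Of the 91 pairs of gene and class, 70 had enough UMIs to be tested, and the other 21 did not: 9 for Cdkn2a, 7 for Cdkn2b, 4 for Cdkn1c and 1 for Cdkn2c. Past the threshold (edgeR quasi-likelihood test, Benjamini-Hochberg adjusted p under 0.05 within a class) were 3 of the 70, all lower under BPTES: Cdkn1a in T cells, Cdkn1a in conventional dendritic cells and Cdkn2c in macrophages. Over all genes and classes, 1.47% of 153261 tests were called, 0.876% lower and 0.599% higher. The share among the inhibitors rests on few tests and on values that single libraries move, as given below. With 1 library left out, a group has a single library, and the number of genes called in a class moves widely. A call gained or lost in such a fit therefore says little of any single gene. At an unadjusted p under 0.05 stood 18 pairs lower and 6 higher, where 16.9% of all tests had such a p, 8.74% with a lower and 8.16% with a higher value. The median log2 fold change of the 70 was -0.07, against -0.01 over all tests.

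**Figure D2:**
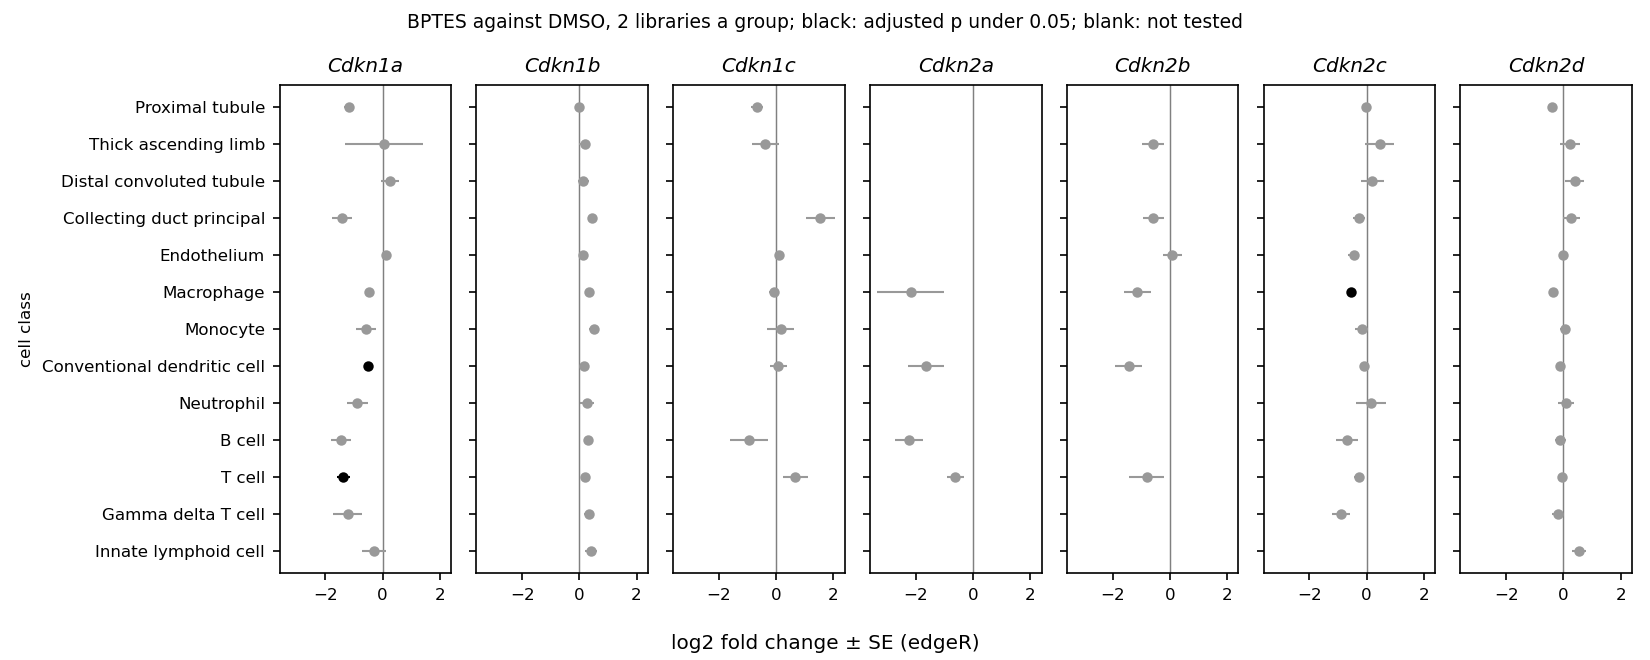
Log2 fold change ± SE, BPTES against DMSO, for each inhibitor (panels) in each tested class (rows), 2 libraries a group. Black points passed the threshold, grey points did not, and pairs with too few UMIs are blank. Cdkn1a lies left of 0 in 10 of 13 classes and Cdkn1b right of 0 in 12 of 13.

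In the paragraphs on treatment, CPM are scaled by the TMM factors that the test uses, and overlap between groups is judged on that scale. Over all tests 49.3% of genes had groups that did not overlap, against 40 of the 70 pairs of inhibitors and classes (26 lower under BPTES, where 25.1% of all tests were lower and 24.2% higher without overlap).

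Cdkn1a, which encodes p21 and is a classical target of p53, was the inhibitor with the most lower values. It lay below DMSO without overlap in 8 of the 13 classes, reached an unadjusted p under 0.05 in the same number, all lower, and had a median log2 fold change of -0.57, the value of monocytes, which a single library set. In T cells it had 38 and 36 UMIs in the treated libraries against 89 and 137 in the controls, or 4.28 and 3.49 CPM against 8.77 and 11.2 CPM. Both treated libraries were below both controls, and the gene fell (log2 fold change -1.37, SE 0.24, edgeR adjusted p 0.0251, in a class where 1.63% of genes were called). T cells with at least 1 UMI made up 2.93% (95% exact interval 1.94 to 4.24) and 2.39% (1.57 to 3.48) under BPTES and 5.05% (3.79 to 6.59) and 6.80% (5.37 to 8.47) under DMSO. After each cell was thinned to 2000 UMIs, leaving out 105 to 144 shallower cells a library, the shares were 0.772%, 0.211%, 1.59% and 2.79%. Intervals cover counting error only.

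T cells had the lowest Cdkn1a level of any class, so RNA from other cells was measured beside it. Their Cdkn1a was 10.1% of the macrophage level under DMSO, while the 8 macrophage markers stood at a median of 0.775% and none was as high. Relative to other classes, 2 of 7 monocyte, 2 of 8 dendritic cell, 1 of 6 neutrophil and 1 of 9 endothelial markers were at least as high in T cells as Cdkn1a. Summed macrophage markers moved with the gene, at 55.0 and 85.2 CPM under BPTES and 105 and 173 under DMSO in T cells. Proximal tubule markers, from the most numerous cells, moved against it (603 and 519 against 443 and 365 CPM). The part of either in the fall of Cdkn1a was not tested. Without the T cell cluster led by Mki67 and Top2a, the log2 fold change was -1.24 (adjusted p 0.0599), and the call was also lost without BPTES replicate 2 (-1.23, 0.0731) or DMSO replicate 2 (-1.18, 0.173). Retaining the predicted doublets ended it too (-1.84, 0.197).

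Conventional dendritic cells, which present antigen to T cells, carried far more of the gene: 1426 and 1248 Cdkn1a UMIs in the treated libraries against 3188 and 3572 in the controls, from 305 and 293 cells against 500 and 401. As CPM these were 131 and 117 CPM against 163 and 192 CPM, with both treated libraries below both controls. The 20 and 27 highest cells under BPTES and the 49 and 41 under DMSO reached 50% of the Cdkn1a UMIs. Cdkn1a fell by 0.51 on the log2 scale (SE 0.09, adjusted p 0.0297, with 4.75% of genes called in this class). Summed macrophage markers were also lower under BPTES here, at 1905 and 2109 against 2798 and 3687 CPM, and their part was not tested. Without BPTES replicate 2 the log2 fold change was -0.43 (adjusted p 0.140), and with finer clusters it was -0.41 (0.0610). The class held 2 clusters, and the gene was lower in 1 of them. In the cluster led by Cd209a and Ccl17 it had 186 and 194 CPM under BPTES and 207 and 266 under DMSO, without overlap. In the one led by Xcr1 and Clec9a it was 58.6 and 27.4 against 31.5 and 38.5 CPM, with overlap. The first cluster, with the higher level, had 193 and 173 cells against 384 and 278, and the other 112 and 120 against 116 and 123, so the make-up of the class differed as well and its part was not separated.

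Proximal tubule, the reabsorbing epithelium that is the main site of injury in many kidney diseases, missed the threshold for Cdkn1a by a small margin. Its 5718 and 5388 cells under BPTES held 1362 and 699 Cdkn1a UMIs, and its 5570 and 4773 cells under DMSO held 2637 and 1980. These were 10.9 and 7.50 CPM against 22.2 and 19.2 CPM, without overlap (log2 fold change -1.16, SE 0.18, adjusted p 0.0536, where 0.599% of genes were called). The share of positive cells was 7.21% and 3.88% under BPTES and 10.1% and 10.8% under DMSO. Few cells carried much of the count: 49 and 27 cells under BPTES and 48 and 50 under DMSO reached 50% of the Cdkn1a UMIs. Thinned to 2000 UMIs, with 218 to 346 shallower cells a library left out, the share of positive cells was 1.61% and 0.890% against 2.79% and 1.96%.

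The size of this difference depended on which library was left out. Without BPTES replicate 2, the lowest library, the log2 fold change was -0.92. Without BPTES replicate 1, DMSO replicate 1 or DMSO replicate 2 it was -1.46, -1.06 and -1.27. Adding the unnamed cluster led by C3, Fgg, Fgb and Havcr1 (a kidney injury gene) to proximal tubule gave -1.23 (adjusted p 0.0462). That cluster had 24 and 21 cells under BPTES and 163 and 136 under DMSO, and its own Cdkn1a was 47.0 and 5.23 CPM against 79.1 and 55.1 CPM.

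Within proximal tubule the level of Cdkn1a varied widely between clusters. Of the 9 clusters with enough cells, 7 had a lower mean under BPTES. The groups did not overlap in 5 of these, and no cluster was higher without overlap. In the class as a whole 57.4% of all genes had groups that did not overlap, and such a share per cluster is not given here. The cluster led by Cndp2, Acsm3 and Acy3 was highest, at 36.7 and 32.0 CPM under BPTES and 54.1 and 55.5 under DMSO. A cluster led by Cyp2a4, Slco1a1 and Slc7a13, genes of the straight segment in mice, had 23.3 and 12.5 against 40.8 and 29.2 CPM. The cluster led by Spp2, Apob and Gc was low in every library (4.31 and 2.96 against 4.61 and 2.91 CPM) and held 1580 and 1925 cells under BPTES and 1112 and 1105 under DMSO. Make-up and level per cluster thus both differed between the groups, and their parts in the class difference were not separated.

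RNA of other cells was measured here too. Under DMSO macrophage markers stood at a median of 0.242% of their level in macrophages, while Cdkn1a stood at 21.5% of it and 1 of 8 markers was as high. Cdkn1a stood at 3.07% of its level in neutrophils, 11.7% of that in monocytes, 12.1% of that in conventional dendritic cells and 18.7% of that in endothelium, and none of the 6, 7, 8 and 9 markers of these classes was as high. Some immediate early genes, which dissociation of tissue induces, were lower along with Cdkn1a in this class. Of 16 dissociation and stress genes, 3 were called lower in proximal tubule and none higher: Atf3 (1.85 and 2.07 against 5.20 and 5.06 CPM, log2 fold change -1.39), Zfp36 (-0.83) and Junb (-0.70). None of the 3 was called without BPTES replicate 2 or with predicted doublets kept in, and only Atf3 without BPTES replicate 1 or with RLE scaling. The median mitochondrial share of proximal tubule cells was 15.9% and 21.3% under BPTES and 11.9% and 15.5% under DMSO. Their part in the Cdkn1a difference was not tested.

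**Figure D3:**
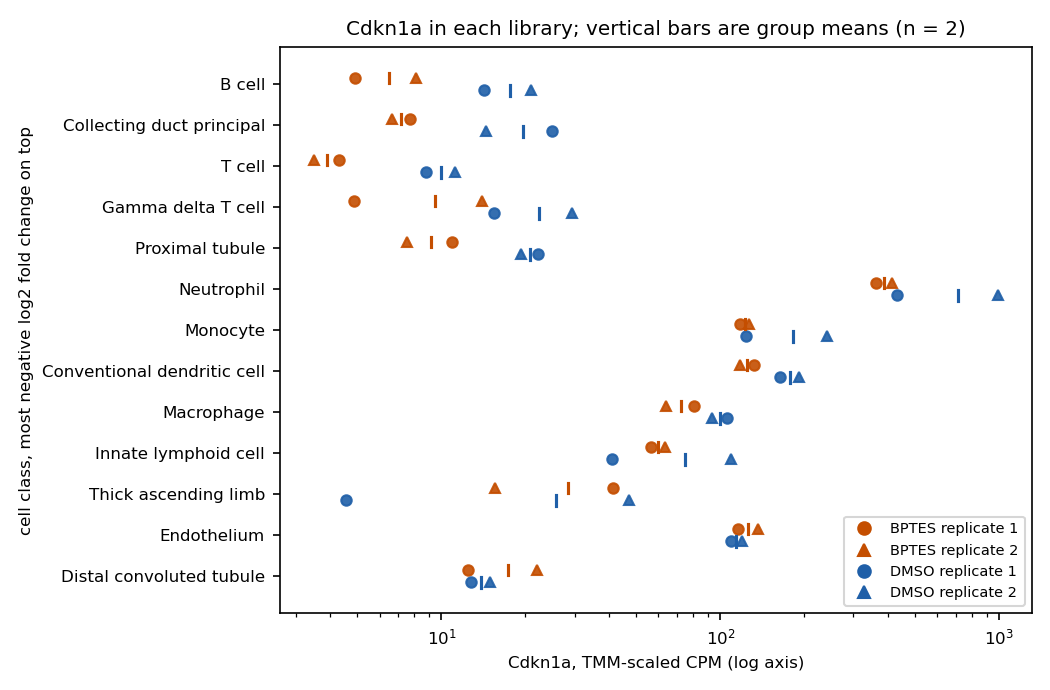
TMM-scaled CPM of Cdkn1a (log axis) in each library for the 13 tested classes, ordered by log2 fold change with the most negative on top; orange marks BPTES, blue DMSO, circles replicate 1 and triangles replicate 2, and vertical bars are group means. The groups are apart in T cells and proximal tubule, and a single high DMSO library stands out in neutrophils.

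Other classes gave lower Cdkn1a values that missed the threshold. In macrophages it was 80.3 and 64.0 CPM under BPTES against 106 and 93.2 under DMSO, from 1388, 881, 2742 and 2375 UMIs (log2 fold change -0.46, SE 0.12, adjusted p 0.0847, where 5.41% of genes were called). Leaving out the macrophage cluster led by Mki67 and Top2a took it past the threshold (-0.51, adjusted p 0.0417). Collecting duct principal cells had 24 and 18 UMIs against 57 and 47, or 7.73 and 6.64 against 24.8 and 14.4 CPM (-1.41, SE 0.34, adjusted p 0.182). Gamma delta T cells had 13 and 30 UMIs against 49 and 48, with 4.87 and 14 against 15.4 and 29.4 CPM (-1.22, SE 0.50, adjusted p 0.330). There the value ran from -2.11 without BPTES replicate 2 to -0.59 without BPTES replicate 1.

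B cells and neutrophils each contained a cluster with mixed markers, and this weighed on both. B cells had 18 and 24 Cdkn1a UMIs in the treated libraries against 48 and 92 in the controls (4.89 and 8.13 against 14.2 and 21.0 CPM, log2 fold change -1.46, SE 0.35, adjusted p 0.0983). A cluster led by both Cd79a, of B cells, and Ccl8, of macrophages, held 1 and 5 of the B cells under BPTES and 17 and 46 under DMSO, and it carried 0, 17, 31 and 85 of those UMIs. Outside it 18 and 7 UMIs remained under BPTES and 17 and 7 under DMSO, and the log2 fold change was -0.23 (SE 0.57, adjusted p 0.924).

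Neutrophils had 1271 and 1383 UMIs in the treated libraries against 1101 and 3642 in the controls, or 361 and 412 against 431 and 988 CPM. The DMSO value rested on replicate 2: the log2 fold change was -0.88 (SE 0.36, adjusted p 0.443) with all libraries and -0.16 without it. Monocytes and innate lymphoid cells had the same high library. Monocytes had 118 and 126 CPM under BPTES against 124 and 241 under DMSO (-0.57, SE 0.35, adjusted p 0.423), and -0.01 without DMSO replicate 2. Innate lymphoid cells had 56.2 and 63.5 against 40.8 and 109 CPM (-0.30, SE 0.43, adjusted p 0.894), and the sign turned to 0.55 without that library. Before TMM scaling, the neutrophil values of 376 and 413 CPM overlapped 400 and 995 CPM. Without the neutrophil cluster led by Csf3r and Adgre4 the value was -0.54 (adjusted p 0.762). In neutrophils no gene of 9573 passed the threshold in edgeR, and 1059 (11.1%) had an unadjusted p under 0.05.

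Endothelium, which lines the vessels and had more Cdkn1a than any epithelial class, did not share the direction. It had 1189 and 771 UMIs in the treated libraries against 998 and 1635 in the controls, and the groups overlapped (log2 fold change 0.14, SE 0.10, adjusted p 0.635). Distal convoluted tubule (0.27, SE 0.32) and thick ascending limb (0.06, SE 1.36) overlapped too. In the thick ascending limb single libraries ranged from 10 UMIs (DMSO replicate 1) to 252 (DMSO replicate 2), which left the value without precision: it was -0.82 without BPTES replicate 1 and 2.69 without DMSO replicate 2.

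The difference between classes was tested directly for 3 pairs of classes. The effect on Cdkn1a in macrophages exceeded (was less negative than) that in proximal tubule by 0.68 on the log2 scale (SE 0.11, adjusted p 0.0376, where 1% of genes were called). It was no longer called without BPTES replicate 1 (0.77, adjusted p 0.106) or BPTES replicate 2 (0.60, 0.347). Endothelium differed from proximal tubule by 1.28 (SE 0.23, adjusted p 0.0853, 0.307% of genes called). With any single library left out that difference was 0.94 to 1.64. T cells differed from macrophages by -0.92 (SE 0.22, adjusted p 0.116, 0.383% called). With 1 library left out that value ran from -1.17 (without DMSO replicate 1) to -0.61 (without DMSO replicate 2).

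Cdkn1b, which encodes p27 and holds resting cells out of the cycle, went the other way in sign. Its fold change was above 0 in 12 of 13 classes (49.1% of all tests were above 0), with a median of 0.26 on the log2 scale, and none passed the threshold. The groups did not overlap in 8 classes, none of them lower. Macrophages came nearest, with 1810 and 1496 UMIs in the treated libraries against 2050 and 2238 in the controls, or 105 and 109 CPM against 79.1 and 87.9 (log2 fold change 0.35, SE 0.08, adjusted p 0.0514). Without the cycling macrophage cluster the adjusted p was 0.0391 at 0.36, and without DMSO replicate 2 it was 0.0298 at 0.43.

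Monocytes had 163 and 167 Cdkn1b CPM under BPTES against 97.2 and 136 under DMSO (log2 fold change 0.51, SE 0.16, adjusted p 0.142). The value ran from 0.28 to 0.77 with 1 library left out. Collecting duct principal cells had 109 and 96.7 against 71.8 and 80.4 CPM (0.43, SE 0.13, adjusted p 0.278), and B cells 132 and 143 against 119 and 105 CPM (0.30, SE 0.13, adjusted p 0.267). In conventional dendritic cells the values were 99.7 and 98.1 against 87.1 and 91.0 CPM (0.15, SE 0.07, adjusted p 0.210). The smallest of these differences is 1.11-fold. Neutrophils, the class with the most Cdkn1b, overlapped (0.26, SE 0.24, and -0.01 without DMSO replicate 2), and proximal tubule had 3693, 2832, 3654 and 3051 UMIs with a log2 fold change of -0.01 (SE 0.08).

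Cdkn1c, encoding p57, showed no difference past the threshold in endothelium, its main class: 257 and 143 UMIs in the treated libraries against 203 and 339 in the controls, with a log2 fold change of 0.10 (SE 0.12, adjusted p 0.823). Proximal tubule had 106 and 80 UMIs against 154 and 145, or 0.849 and 0.859 against 1.29 and 1.41 CPM (-0.66, SE 0.20, adjusted p 0.145). Collecting duct principal cells had 17 and 23 UMIs against 6 and 7, or 5.48 and 8.49 against 2.61 and 2.15 CPM (1.54, SE 0.50, adjusted p 0.289). In proximal tubule and in principal cells the groups did not overlap, and neither was called. In principal cells only the BPTES libraries passed the count filter for Cdkn1c. A value above 0 without overlap was thus set in advance there.

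Cdkn2a encodes p16Ink4a and Arf, and its transcripts accumulate in aged and senescent tissue. It could be tested in 4 classes, had a fold change below 0 in each and was called in none. In B cells and conventional dendritic cells only its DMSO libraries passed the count filter. A value below 0 was thus set in advance in those classes. Macrophages held 52 and 21 UMIs in the treated libraries against 469 and 73 in the controls, or 3.01 and 1.53 CPM against 18.1 and 2.87 CPM. A single library, DMSO replicate 1, stood apart, and the groups overlapped at the other end. The log2 fold change was -2.18 with an SE of 1.16 (adjusted p 0.343). Without DMSO replicate 1 it was -0.32, and without DMSO replicate 2 it was -2.96 (adjusted p 0.00616).

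In that library the transcript was spread over many macrophages and not carried by a few. Positive cells made up 18.8% of its 1110 macrophages (exact 95% interval 16.6 to 21.3), against 4.0% (2.79 to 5.54), 2.37% (1.41 to 3.73) and 4.99% (3.73 to 6.5) in BPTES replicates 1 and 2 and DMSO replicate 2. Among its 209 positive cells, 57 were needed to reach 50% of the UMIs and the 10 cells with most held 13.9%. At 2000 UMIs a cell, with 29 to 63 shallower cells a library left out, the shares were 0.366% and 0.549% under BPTES and 3.76% and 0.417% under DMSO. In proximal tubule, at similar median depth (14966 to 17874 UMIs, against 14610 to 21015 in macrophages), 0.0180% to 0.105% of cells had a Cdkn2a UMI. The part of free RNA in the macrophage counts was not tested.

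All 3 macrophage clusters with enough cells had lower means under BPTES, and DMSO replicate 1 was the highest library in each. In the cluster led by C1qa, C1qc and C1qb it had 22.0 CPM, where the other 3 libraries had 2.93, 1.78 and 2.35 CPM. The same library was high for Cdkn2a in monocytes (40 UMIs against 3, 6 and 1) and in conventional dendritic cells (50 against 5, 7 and 17). Conventional dendritic cells were tested (log2 fold change -1.63, SE 0.63, adjusted p 0.171), and under DMSO all 8 macrophage markers stood at least as high relative to macrophages as Cdkn2a did there.

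**Figure D4:**
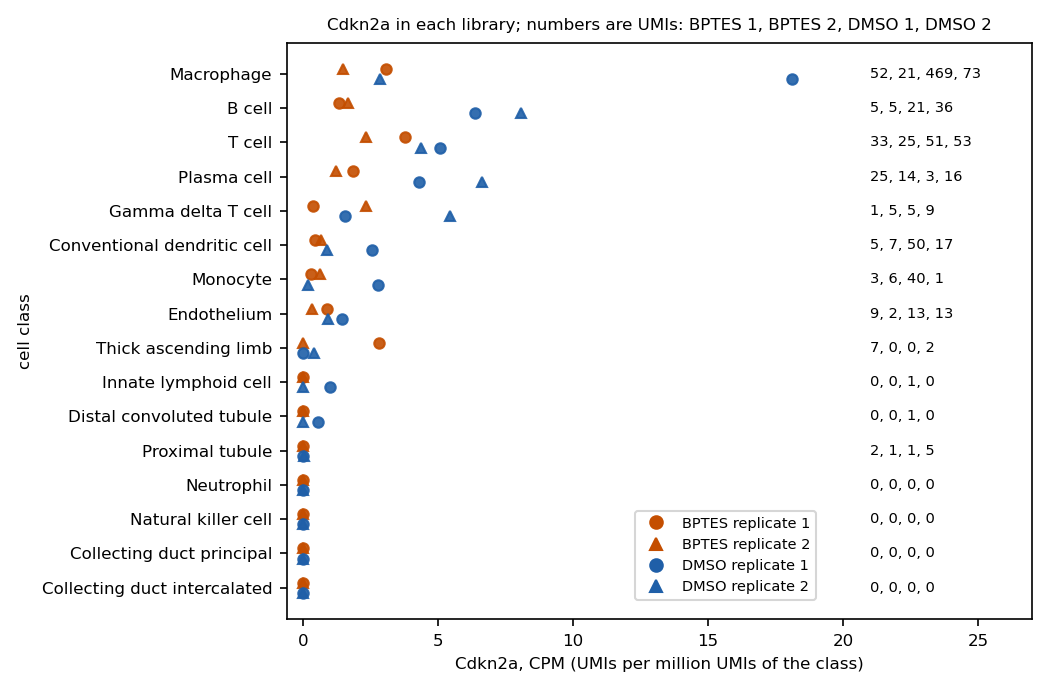
CPM of Cdkn2a (linear axis, not TMM-scaled) in each library for 16 classes, ordered by mean, with the UMIs behind the points printed at the right; orange marks BPTES, blue DMSO, circles replicate 1 and triangles replicate 2. The macrophage point at 18.1 CPM belongs to DMSO replicate 1, and the other 3 macrophage libraries lie between 1.5 and 3.06 CPM.

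B cells had 5 and 5 Cdkn2a UMIs in the treated libraries against 21 and 36 in the controls, or 1.36 and 1.69 against 6.22 and 8.21 CPM (log2 fold change -2.24, SE 0.49, adjusted p 0.0876). The cluster with Cd79a and Ccl8 held 14 and 19 of the DMSO counts, and outside it there were 5 and 5 UMIs against 7 and 17, too few for a test. T cells had 33 and 25 UMIs against 51 and 53, without overlap (-0.61, SE 0.31, adjusted p 0.307).

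Cdkn2b, the neighbour of Cdkn2a that encodes p15 and is induced by TGF-beta, was tested in 6 classes and below 0 in 5. Conventional dendritic cells had 13 and 5 UMIs in the treated libraries against 36 and 51 in the controls (1.20 and 0.470 against 1.85 and 2.74 CPM, log2 fold change -1.44, SE 0.48, adjusted p 0.118). The value ran from -2.26 without BPTES replicate 1 to -0.93 without BPTES replicate 2. Macrophages had 8 and 8 UMIs against 38 and 21 (-1.14, SE 0.47, adjusted p 0.178). There the treated counts lay near the count filter, and the value ran from -1.49 to -0.67 with 1 library left out. Thick ascending limb, its highest class, had 26 and 9 against 25 and 77 UMIs (-0.57, SE 0.39, adjusted p 0.889).

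Cdkn2c, which encodes p18, gave the third call. Macrophages had 185 and 149 UMIs in the treated libraries against 398 and 408 in the controls, or 10.7 and 10.8 against 15.4 and 16.0 CPM, and the gene fell by 0.54 on the log2 scale (SE 0.11, edgeR adjusted p 0.0427). Cycling macrophages moved with it. The cluster led by Mki67 and Top2a held 2.59% and 2.77% of macrophages under BPTES and 8.20% and 6.84% under DMSO, and its Cdkn2c level (43.9 and 68.6 CPM under BPTES, 58.8 and 57.3 under DMSO) was far above the 6.91 and 6.36 against 6.94 and 9.56 CPM of the largest macrophage cluster. Without the cycling cluster the log2 fold change was -0.31 (adjusted p 0.363), and the call was also lost with DESeq2 (adjusted p 0.0999), when predicted doublets stayed in (-0.42, 0.0898), and on leaving out BPTES replicate 1 (-0.53, 0.155), BPTES replicate 2 (-0.55, 0.178) or DMSO replicate 2 (-0.51, 0.0826).

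Lower Cdkn2c values without a call were seen in gamma delta T cells (30 and 15 UMIs against 52 and 31, log2 fold change -0.91, SE 0.31, adjusted p 0.189) and endothelium (116 and 46 against 129 and 182, -0.45, SE 0.19, adjusted p 0.388). With 1 library left out these ran from -1.30 to -0.63 and from -0.75 to -0.26. In proximal tubule, where Cdkn2c was highest, it had 2999, 2571, 3498 and 2339 UMIs and a log2 fold change of -0.02 (SE 0.14). Cdkn2d, encoding p19, was near 0 in most classes (median 0.00 on the log2 scale). It was 18.3 and 23.0 against 27.6 and 25.5 CPM in macrophages (-0.37, SE 0.12, adjusted p 0.116) and 5.81 and 4.56 against 7.37 and 6.18 CPM in proximal tubule (-0.38, SE 0.15, adjusted p 0.218). With 1 library left out these Cdkn2d values ran from -0.53 to -0.21 and from -0.57 to -0.22. Neutrophils, with the highest level, had 667 and 597 against 577 and 446 UMIs and overlapped (0.09, SE 0.29).

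**Figure D5:**
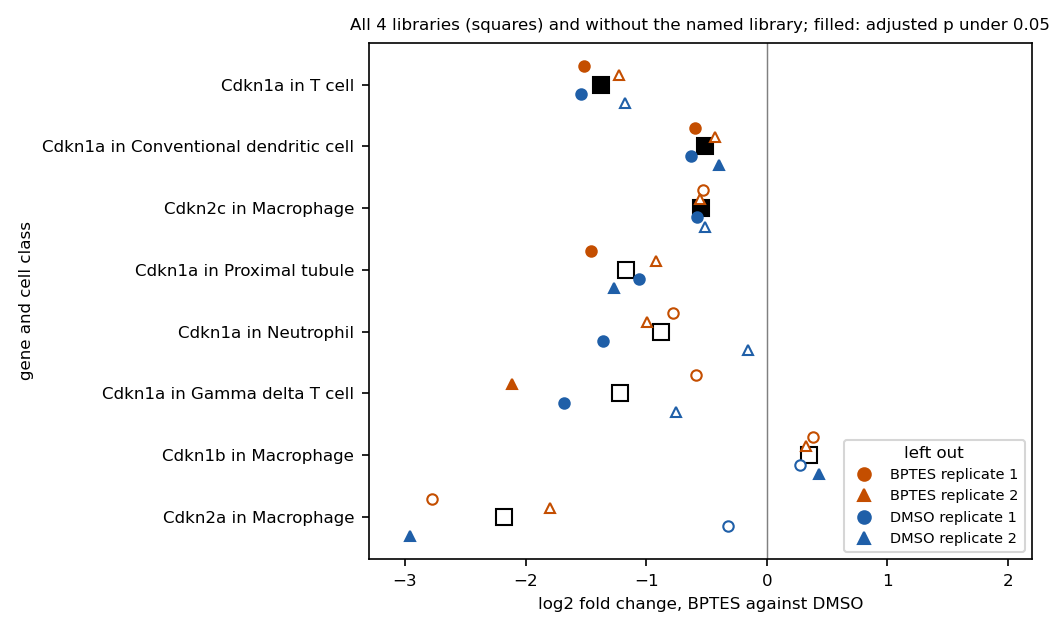
Log2 fold change, BPTES against DMSO, for 8 pairs of gene and class with all 4 libraries (squares) and with 1 library left out (orange BPTES, blue DMSO, circles replicate 1, triangles replicate 2); filled symbols passed an adjusted p of 0.05. Cdkn2a in macrophages runs from -2.96 to -0.32 and Cdkn1a in neutrophils from -1.35 to -0.16, while Cdkn2c in macrophages stays between -0.58 and -0.51.

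Genes around the inhibitors were also called in macrophages, where 5.41% of all genes were. Of 18 genes of S and M phase, 8 were called lower there and none higher, and the list's median log2 fold change was -0.74. Tk1, thymidine kinase, had 9.08 and 9.23 CPM under BPTES against 28.2 and 27 (-1.59, adjusted p 0.00470), and the helicase subunits Mcm3 (-1.08) and Mcm5 (-0.95) followed. E2f1 (-1.0), its partner Tfdp1 (-0.59) and E2f7 (-1.39) were the 3 of 14 Rb and E2F genes called, all lower. Among 16 cyclins and kinases Ccne2 (-1.43) and Cdk4 (-0.40) fell, and Ccnd3 rose (1.04, 363 and 497 against 211 and 208 CPM). All 8 S and M phase genes stayed lower whichever library was left out, but none of them was called without BPTES replicate 2 and 2, Tk1 and Mcm3, without BPTES replicate 1. Of the Rb and E2F genes none was called without either BPTES library. Few genes of any kind were called in macrophages in the fits without a BPTES library. The share of cycling macrophages moved with the S and M phase and the Rb and E2F genes, as given above. Without the cycling cluster 6 of the 8 S and M phase genes were still called and all 8 were still lower, none of the 3 Rb and E2F genes was called, nor were Ccne2 and Cdk4, and Ccnd3 and the 5 upstream regulators were.

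Of 20 upstream regulators, 2 fell and 3 rose in macrophages, among them Ets2 (-0.93), Foxo3 (0.42) and Ets1 (0.47), and none of the 5 was called without either BPTES library.

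Over all classes the S and M phase list had 13 calls, all lower, in 152 tests. The cyclins and kinases had 6 lower and 6 higher in 143 tests, the Rb and E2F genes 3 lower in 155, and the upstream regulators 2 lower and 6 higher in 239, against 0.876% lower and 0.599% higher over all tests. Dissociation and stress genes had 11 lower and 2 higher in 206 tests. Ccnd3, a D-type cyclin whose kinases the INK4 proteins bind, was called higher in 5 classes: conventional dendritic cells (0.71), gamma delta T cells (0.63, with 1.94% of genes called), macrophages, monocytes (1.17, with 1.81%) and T cells (0.53). In conventional dendritic cells the call held under every alternative run. It was lost in monocytes without either BPTES library, in macrophages without BPTES replicate 2 or either DMSO library, in T cells without either DMSO library, and in macrophages, T cells and gamma delta T cells with predicted doublets kept in. Other cyclins and kinases called were Ccnd2 in B cells (-1.18), Ccnd1 in monocytes (-0.62), and Cdk6, higher in conventional dendritic cells (0.34) and lower in gamma delta T cells (-0.91). Tk1 was also called lower in gamma delta T cells (-1.65) and monocytes (-2.90), and the proliferation gene Mki67 in gamma delta T cells (-1.55). Myc, which encodes a factor of growth, was called higher in conventional dendritic cells (0.82). Of these, Ccnd2, Ccnd1 and monocyte Tk1 were not called without either BPTES library, Cdk6 in conventional dendritic cells not without either of them or DMSO replicate 2, and Tk1 and Mki67 in gamma delta T cells not with DESeq2. In T cells, Foxo3 (0.57), a factor that activates Cdkn1b, and Usp28 (1.21) rose, while Top2a fell by 0.43. Retaining predicted doublets ended these 3 calls, as did leaving out DMSO replicate 2, and that of Foxo3 was also lost without BPTES replicate 2. In proximal tubule Cdk1 (-2.45) and Top2a (-1.73) fell at levels under 6 CPM, where the share of cells in the cycling cluster was 0.192% and 0.186% under BPTES and 0.969% and 0.314% under DMSO. Both calls were lost without BPTES replicate 2 and with predicted doublets kept in, and that for Top2a also without BPTES replicate 1 and with RLE scaling. Without the cycling cluster neither was called. Some stress genes were also called lower outside proximal tubule. The list's median log2 fold change was above 0 in conventional dendritic cells, macrophages, neutrophils, T cells and collecting duct principal cells (0.02 to 0.17). In the remaining classes outside proximal tubule it was below 0 (-0.72 to -0.03). In thick ascending limb 5 of 16 were called lower, led by Atf3 (10.2 and 14.3 against 53.5 and 59.9 CPM, log2 fold change -2.25), Zfp36 (-2.07), Egr1 (-1.76) and Junb (-1.37). None of the 5 was called without either BPTES library or when predicted doublets were retained, and 2 of them were with the 25% mitochondrial limit. In endothelium Egr1 (-1.12) and Atf3 (-0.85) fell, the first under every alternative run. In conventional dendritic cells Ier3 fell by 0.77 and Dnajb1 rose (0.87), and in monocytes Hspa1b rose (0.99), a call lost without either BPTES library. Cdkn1a was not called in thick ascending limb, endothelium or monocytes, and the part of these genes in its values was not tested. Trp53, which encodes p53, was tested with the upstream regulators and not called in any class.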

How the data were processed

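The authors deposited UMI counts per gene and barcode from 10x GEM-X 3′ v4 libraries, made with Cell Ranger 8.0.1 per the file headers and on build mm10 per the submitters' processing notes. The gene annotation behind the counts is not given in the sources used here. Each library had 249881074 to 297947661 counts, which limits the precision of rare genes such as Cdkn2a.

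A barcode counted as a cell with 500 or more UMIs, 300 or more genes and no more than 50% mitochondrial counts, a limit that 33.1% of barcodes exceeded. The highest Scrublet scores were removed as doublets, at 0.4% per 1000 barcodes (3867 cells), since its own threshold marked 673. Cells were clustered with scanpy 1.11.5 on 3000 variable genes without the 7 inhibitors (40 components, 15 neighbours, Leiden resolution 1). Classes were named from marker lists.

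UMIs were summed per library and class and tested with edgeR 4.0.16 (quasi-likelihood, TMM, filterByExpr, Benjamini-Hochberg within a class). In data simulated at the trended dispersion, genes with at least 100 UMIs were changed by 1 on the log2 scale. The test recovered 88% of them in proximal tubule, 80% in macrophages and 88% in T cells, with 14, 12 and 13 false calls. Genes with fewer UMIs were not changed and outlying single libraries were not simulated, so the rates do not cover such inhibitor pairs. Shares carry exact (Clopper-Pearson) intervals. An exact permutation test of 2 libraries against 2 cannot go below p = 0.333.

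The members and gene lists were chosen with earlier results of these data known. Full values were given for pairs with an unadjusted p under 0.05, each inhibitor's highest class, and Cdkn2a in macrophages; for the other lists, up to 3 genes per list and class with the smallest adjusted p past the threshold (Junb in thick ascending limb was added after its values were seen); and, per inhibitor, the 3 genes with the highest Pearson r. Alternatives were DESeq2 1.42.0, RLE scaling, no count filter, a replicate block, a 25% mitochondrial limit, doublets kept, Leiden resolution 2 and each library left out.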

Additional observations from a re-analysis of the deposited data

Results flagged for a closer look

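The effect of BPTES on Cdkn1a differed between classes, by the test of the difference itself: in macrophages minus that in proximal tubule it was 0.68 on the log2 scale. The difference was not called without BPTES replicate 1 (adjusted p 0.106) or BPTES replicate 2 (0.347), and the other pairs of classes were not called with all libraries. For Cdkn1c the groups were apart in opposite directions in proximal tubule (log2 fold change -0.66) and collecting duct principal cells (1.54), and that difference was not tested. In principal cells only the BPTES libraries passed the count filter for Cdkn1c, so a value above 0 was set in advance there.

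Several clusters outside the tested classes had both BPTES libraries above both DMSO libraries for an inhibitor with at least 50 UMIs in all. None of these was tested. Of 35 such pairs of inhibitor and cluster, 8 were higher and 9 lower without overlap, where 25.1% of all tests in the tested classes were lower and 24.2% higher without overlap, so the counts are near those shares. The lower ones were Cdkn1a in the clusters with Havcr1 and with Cryab, Cdkn1a, Cdkn2c and Cdkn2d in a natural killer cell cluster, Cdkn2a and Cdkn2c in plasma cells, Cdkn2d in collecting duct intercalated cells, and Cdkn1b in the cluster led by Arhgap22 and Negr1. The unnamed cluster led by Ccdc85a and Shank3 had mean CPM under BPTES and DMSO of 139 and 67.4 for Cdkn1a, 54.8 and 42.3 for Cdkn1b, and 85.3 and 30.4 for Cdkn1c. BPTES replicate 1 carried much of this, with 198 CPM of Cdkn1a and 111 CPM of Cdkn1c against 80.1 and 60.0 CPM in BPTES replicate 2. In the unnamed cluster led by Dcn, a collagen-binding matrix gene, Cdkn1c had means of 149 and 37.8 CPM. BPTES replicate 1 alone set that value, since BPTES replicate 2 had 47.8 CPM and the DMSO libraries 33.4 and 42.2. In the cluster led by Cryab, Fst and Slc14a2, Cdkn2b had means of 72.4 and 42.4 CPM and Cdkn1b 109 and 83.6 CPM. Cdkn1b had 71.8 and 62.5 CPM in the unnamed cluster led by Lgr5, Cldn5 and Aqp1. Collecting duct intercalated cells had 11.9 and 6.26 CPM of Cdkn2c.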

How the results depend on the processing

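Across 289 alternative fits of the 25 named pairs of gene and class, none reversed sign. All but Cdkn2a in macrophages were chosen for an unadjusted edgeR p under 0.05 in these same libraries, so this says little. For Cdkn2a in B cells and conventional dendritic cells and Cdkn1c in principal cells, the count filter had set the sign. Of all 70 pairs, 20 changed sign when some library was left out. Of these fits 241 stayed on the same side of the threshold, 13 lost a call and 35 gained one. Of 3 called pairs, the number called was 5 with DESeq2, 11 without the count filter, 6 with the replicate block, and 1 to 12 with 1 library left out. The block kept the Cdkn1a calls in T cells and conventional dendritic cells and not Cdkn2c in macrophages (adjusted p 0.0821). Among the 25, Cdkn2a in macrophages was moved most by a single library, and among all 70 Cdkn1a in thick ascending limb.

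Genes of the surrounding lists numbered 49 calls, against 96 with DESeq2, 179 without the filter, 89 with the replicate block (which ended the 3 cyclin and kinase, the 3 Rb and E2F and the 5 upstream regulator calls in macrophages and left 2 of 8 of S and M phase) and 27 to 139 with 1 library left out. The replicate numbers share only a number: correlations of deviations between same-numbered libraries ran from -0.06 to 0.18 over classes. Calls for the difference between classes numbered 1, and 1 to 4 with a library left out. Ranked by mean UMIs per cell, 4 of 7 inhibitors kept their leading class. By Spearman correlation 5 of the 21 most alike genes were the same. The share of positive cells at 2000 UMIs pointed the way of the CPM for 24 of 25 pairs, and for 20 at 1000 UMIs. Leaving out the cycling clusters, leaving out the mixed clusters and adding the Havcr1 cluster were chosen after seeing the data. Cdkn2a in conventional dendritic cells could not be tested at Leiden resolution 2 or without DMSO replicate 1, nor in B cells without the mixed cluster. With 1 library left out, the lone library of a group is assumed to vary like the other group's. The cause of these changes was not tested.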
